A study of Mus musculus with 4 samples.

Results

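The heat shock and unfolded protein response genes described here are 40 mouse genes for molecular chaperones, protein folding enzymes, stress sensors and the transcription factors that control them. They were chosen by symbol, through the GENCODE M21 annotation of GRCm38, from the 45706 genes of the deposited count table, and all 40 were found there. No cut-off on a measured value was applied, but the genes were chosen with earlier results of these data known.

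RNA was sequenced from basal radial glia of the medial neocortex in mouse E18.5 embryos, in 4 libraries that form a single group. Basal radial glia are neural progenitors that have left the ventricular surface and keep a fibre towards the pial surface. All 4 libraries share the strain C57BL/6JOlaHsd and the genotype Tubb-GFP/+, a heterozygous reporter, and their titles name the membrane dye DiI; how dye and reporter served the isolation is not known from them. No treated, heat-shocked or wild-type library was analysed here, so levels can be compared between genes and between libraries, but not between conditions. Nothing in the labels says that the libraries come from separate embryos or litters, so each p-value speaks of nothing but the spread among these samples, and that spread may be technical.

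Cells meet unfolded protein in the cytosol and in the endoplasmic reticulum (ER) with separate programmes. In the cytosol, heat shock factor 1 is held inactive until misfolded protein accumulates, and then drives inducible chaperones such as Hspa1a, Hspb1 and Dnajb1, while constitutive relatives such as Hspa8 and Hsp90ab1 fold proteins under ordinary conditions. In the ER, the chaperone BiP (Hspa5) and the membrane sensors IRE1 (Ern1), PERK (Eif2ak3) and ATF6 form the unfolded protein response, which acts through the factors XBP1, ATF4 and CHOP (Ddit3) on genes for chaperones, folding enzymes and ER-associated degradation. Neural progenitors make secreted and membrane proteins in quantity, and in the mouse cortex PERK signalling is known to influence how progenitors divide.

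The libraries held 27979873, 34837657, 29824888 and 26540656 counts for replicates 1 to 4. Between 23128 and 23900 genes had a count, and protein-coding genes took at least 97.1% of the counts. No pair of libraries was a duplicate: the squared difference of their counts was 9.83 to 26.4 times that of sampling noise (chi-square per gene). The pairs with replicate 4, at 20.1 to 26.4, differed most. All 8 radial glia markers checked were above 1 TPM (a count scaled by gene length and library size, here from deposited counts and merged exon length), with a summed level of 4711 to 5688 TPM. The 5 neuron markers summed to 8827 to 9864 TPM and the 5 erythroid markers to 2374 to 4198 TPM, so genes that mark other cell types were present as well. In bulk samples, fewer cells of a type and less RNA per cell cannot be told apart.

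All 40 members lay above 1 TPM and 0 lay below it (edgeR quasi-likelihood F test, Benjamini-Hochberg adjusted p under 0.05 over 20991 genes). Of all genes tested 65.9% lay above this level and 12.1% below, and of the protein-coding genes 75.7% and 11.5%, so most genes with counts share this call. At 5 TPM, 38 members lay above and 1 below, against 57.1% and 35.5% of the protein-coding genes. The levels themselves were spread widely. Mean TPM exceeded 1000 for 3 members and 100 for 17, lay between 10 and 100 for another 17, and was under 10 for 6. The median of the members' means was 69.2 TPM, against 9.0 TPM for tested protein-coding genes and 4.79 TPM for all genes tested. Among the members 15 stood above the 95th percentile of protein-coding genes and 6 below the 50th. Together the members took 1.63% ± 0.0356 of all TPM (SD, n = 4), and of this the 6 constitutive cytosolic chaperones supplied 0.910%, the 13 ER chaperones and folding enzymes 0.386%, the 8 heat-inducible cytosolic chaperones 0.136% and the 3 mitochondrial chaperones 0.111%. The UPR sensors and factors took 0.0537%, the UPR and ERAD targets 0.0273% and the heat shock factors 0.00573%.

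**Figure D1:**
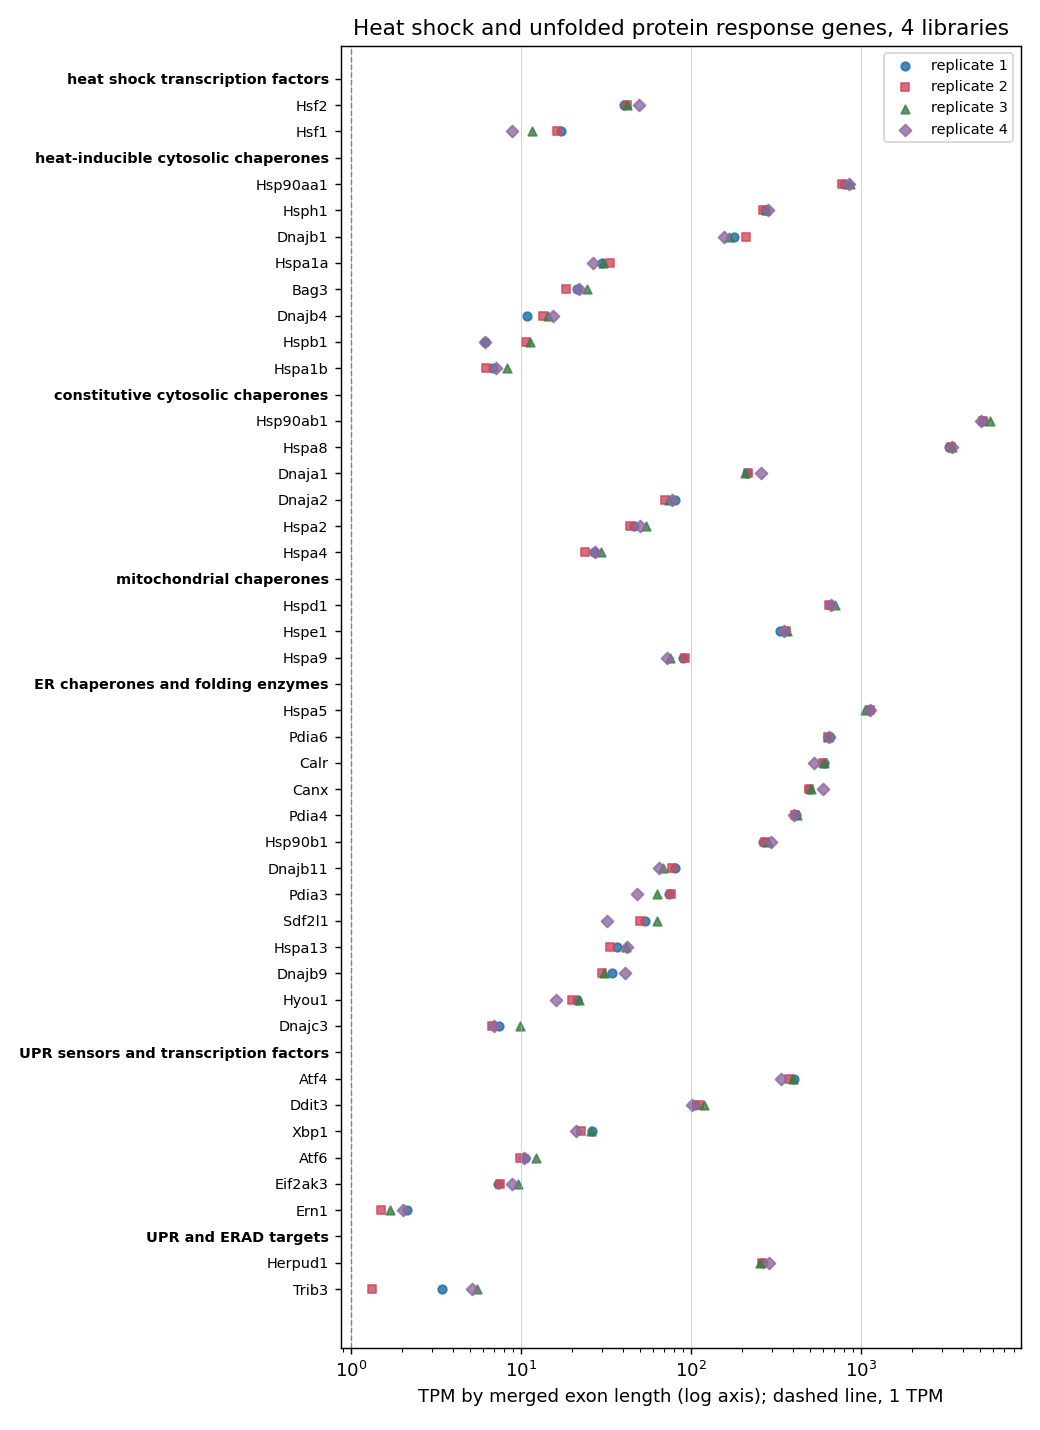
Level of each of the 40 genes in the 4 libraries, as TPM by merged exon length on a log axis, ordered by mean within role groups; each point is 1 library and the dashed line marks 1 TPM. Hsp90ab1 and Hspa8 stand highest at 5315 and 3405 TPM on average, Ern1 lowest at 1.84 TPM, and Trib3 shows the widest scatter between libraries.

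The heat shock factors were present at moderate levels. Hsf1, the main activator of the cytosolic response, stood at 17.3, 16.4, 11.6 and 8.93 TPM in replicates 1 to 4 (mean 13.6 ± 3.99, SD, n = 4). Hsf2, a relative with known roles in cortical development, stood at 40.7, 42.0, 42.2 and 49.9 TPM (43.7 ± 4.16). Hsf1 was highest in replicates 1 and 2 and lowest in replicate 4, where Hsf2 was highest. Hsf1 was lower than Hsf2 in all 4 libraries, by 1.66 ± 0.53 on the log2 scale (SD), more than the spread between them. With 4 libraries the exact two-sided sign-flip permutation test cannot give a p below 0.13, and it gave 0.13 here (0.13 adjusted over 28 gene pairs). The two-sided p was 0.13, before and after adjustment, for every other pair below except Calr and Canx.

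Among the 8 heat-inducible cytosolic chaperones, the HSP90 isoform Hsp90aa1 was highest at 799, 771, 863 and 852 TPM (821 ± 43.7, SD, n = 4). Hsph1, an HSP110 nucleotide exchange factor for HSP70, followed at 275, 265, 279 and 284 TPM (276 ± 8.33). These libraries differed little in either gene, the highest being 1.12 and 1.07 times the lowest. Dnajb1, the HSP40 that delivers clients to HSP70, had 181, 211, 167 and 157 TPM (179 ± 23.5), highest in replicate 2. Bag3, an HSP70 co-chaperone of selective autophagy, had 21.5, 18.3, 24.6 and 21.9 TPM (21.6 ± 2.55), lowest in replicate 2. Dnajb4, another HSP40, had 10.9, 13.6, 14.4 and 15.4 TPM (13.6 ± 1.92), lowest in replicate 1.

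The heat-inducible HSP70 genes Hspa1a and Hspa1b are neighbours on chromosome 17 and encode nearly identical proteins. Hspa1a (ENSMUSG00000091971; GRCm38 chr17:34969190-34972156, minus strand) had 29.9, 33.6, 30.3 and 26.6 TPM (30.1 ± 2.88, SD, n = 4). Hspa1b (ENSMUSG00000090877; chr17:34956436-34959238, minus strand), the lowest of the inducible group, had 6.86, 6.21, 8.24 and 7.19 TPM (7.13 ± 0.849). Hspa1a was higher than Hspa1b in all 4 libraries, by 1.94 ± 0.24 (log2, SD), and their ranges did not overlap. The difference in assigned reads is uncertain, because 66.3% of the 50-base words of Hspa1a and 62.3% of those of Hspa1b also occur in another gene's transcripts, mostly in each other's. Their summed TPM depends little on how reads were divided between the pair, whose exon lengths are 2967 bases (Hspa1a) and 2803 bases (Hspa1b), though reads dropped for matching both would be missing from it. It was 36.7, 39.8, 38.5 and 33.8 TPM. On the opposite strand Gm20481 overlaps 19.01% of the exonic bases of Hspa1a, with 0 counts in every library.

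The upstream sequences of this pair are shown because their levels differed while the sequence hardly does. Both runs are the 250 bases before the RefSeq start (GRCm38.p6, minus strand, chr17:34972157-34972406 for Hspa1a and chr17:34959239-34959488 for Hspa1b), 5′ to 3′. They are identical at 247 bases (98.8%), and capitals mark the 3 that differ, C44T, T47C and T249G, with the base of Hspa1a first and positions counted from 1 at the 5′ end.
Hspa1a: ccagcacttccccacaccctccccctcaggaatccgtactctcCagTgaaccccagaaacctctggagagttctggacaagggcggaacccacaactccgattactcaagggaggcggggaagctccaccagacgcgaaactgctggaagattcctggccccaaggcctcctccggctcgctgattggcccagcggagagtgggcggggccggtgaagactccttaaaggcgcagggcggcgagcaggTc
Hspa1b: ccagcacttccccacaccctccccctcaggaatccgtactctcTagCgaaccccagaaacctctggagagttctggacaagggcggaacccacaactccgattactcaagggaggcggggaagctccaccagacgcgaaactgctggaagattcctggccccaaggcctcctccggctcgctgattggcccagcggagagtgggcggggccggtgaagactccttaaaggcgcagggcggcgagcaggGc

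Hspb1, the small heat shock protein HSP25 of the mouse (ENSMUSG00000004951; chr5:135887919-135889563, plus strand), had 6.18, 10.7, 11.3 and 6.12 TPM from 57, 124, 112 and 52 counts (8.57 ± 2.81 TPM, SD, n = 4). It was higher in replicates 2 and 3 than in replicates 1 and 4, with no overlap. The 4 astrocyte markers checked, Gfap, Aldoc, Aqp4 and Slc1a2, were all above 1 TPM and none was at 0; their summed level was 537, 599, 656 and 541 TPM in replicates 1 to 4, also highest in replicates 2 and 3. Aldoc, at 552 ± 56.1 TPM, made up most of that sum and was itself highest in replicates 2 and 3. Aqp4 was lower in replicates 2 and 3 (3.25 and 4.91 TPM) than in replicates 1 and 4 (6.17 and 6.13 TPM). Gfap was higher in replicate 1 (17.7 TPM) than in replicate 3 (16.5 TPM), and Slc1a2 was lowest in replicate 2 (9.10 TPM). The 8 radial glia markers summed to 4711, 5308, 5688 and 5132 TPM, with replicates 2 and 3 highest as well. Fabp7, at 4631 ± 382 TPM, made up most of that sum. Fabp7, Slc1a3, Hes5 and Hopx were each highest in replicates 2 and 3, while Sox2, Pax6, Vim and Nes were not. The part of either cell type in the Hspb1 values was not tested. Hspb1 was not called more variable than genes of like abundance (edgeR residual quasi-dispersion against its trend, unadjusted p = 0.28). The transcripts of Hspb1 share 50.1% of their 50-base words with other genes, chiefly the pseudogene Hsp25-ps1, which had 0 counts in all 4 libraries.

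The constitutive cytosolic chaperones held the highest levels of all members. Hsp90ab1, the constitutive HSP90 (ENSMUSG00000023944; chr17:45567775-45573271, minus strand), had 5221, 5219, 5726 and 5094 TPM (5315 ± 280.1, SD, n = 4). Hspa8, the constitutive HSP70 known as HSC70 (ENSMUSG00000015656; chr9:40800984-40810087, plus strand), had 3325, 3414, 3460.3 and 3421 TPM (3405 ± 57.2). Neither varied by more than 1.12 times between libraries. Dnaja1, a constitutive HSP40, had 214, 218, 209 and 258 TPM (225 ± 22.5), highest in replicate 4, and its relative Dnaja2 averaged 75.8 ± 4.21 TPM. Hspa2, an HSP70 best known from the testis, had 46.3, 44.1, 54.2 and 50.1 TPM (48.7 ± 4.44), highest in replicate 3. Hspa4, an HSP110 relative, was the lowest of the group at 26.9, 23.9, 29.8 and 27.5 TPM (27.0 ± 2.43), lowest in replicate 2.

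Inducible genes stood below constitutive ones as groups, but not in every family. The median of log2(TPM + 1) was 4.72 ± 0.073 over the inducible genes and 7.04 ± 0.086 over the constitutive genes (SD, n = 4), or 25.4 and 130.3 TPM, beside 2.53 over all genes tested and 3.31 over tested protein-coding genes. The difference was -2.33, -2.28, -2.15 and -2.50 in replicates 1 to 4. By summed TPM the inducible group amounted to 14.9% ± 0.311 of the constitutive group. These are descriptions of chosen groups of 8 and 6 genes and carry no test.

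Within families the gap between inducible and constitutive genes ranged widely. In the HSP70 family Hspa1a was lower than Hspa8, at a log2 ratio of -6.78 ± 0.14, and Hspa1b lower at -8.72 ± 0.14 (SD, n = 4), and the sum of both inducible genes was 1.09% ± 0.0755 of Hspa8. In the HSP90 family Hsp90aa1 was lower than Hsp90ab1, at a log2 ratio of -2.69 ± 0.079, a smaller gap than in the HSP70 family in every library. Dnajb1 was lower than Dnaja1, at a log2 ratio of -0.33 ± 0.28, with values of -0.24, -0.045, -0.32 and -0.71, so replicate 2 held them at nearly the same level. On the deposited TPM that ratio was -0.013, with Dnajb1 higher in replicates 1 and 2 and lower in replicates 3 and 4 (exact sign-flip permutation test, p = 0.88). Hsph1 ran the other way and was higher than Hspa4 by 3.31 ± 0.095. The remaining pairs do not set an inducible against a constitutive gene of one family. Dnajb4 was lower than Dnajb1, both of the inducible group, at a log2 ratio of -3.63 ± 0.32. Hspa2 was lower than Hspa8, both of the constitutive group, at a log2 ratio of -6.10 ± 0.11. Across families, Bag3 was lower than Hspa8, at a log2 ratio of -7.24 ± 0.16, and Hspb1 lower than Hsp90ab1, at a log2 ratio of -9.16 ± 0.38.

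**Figure D2:**
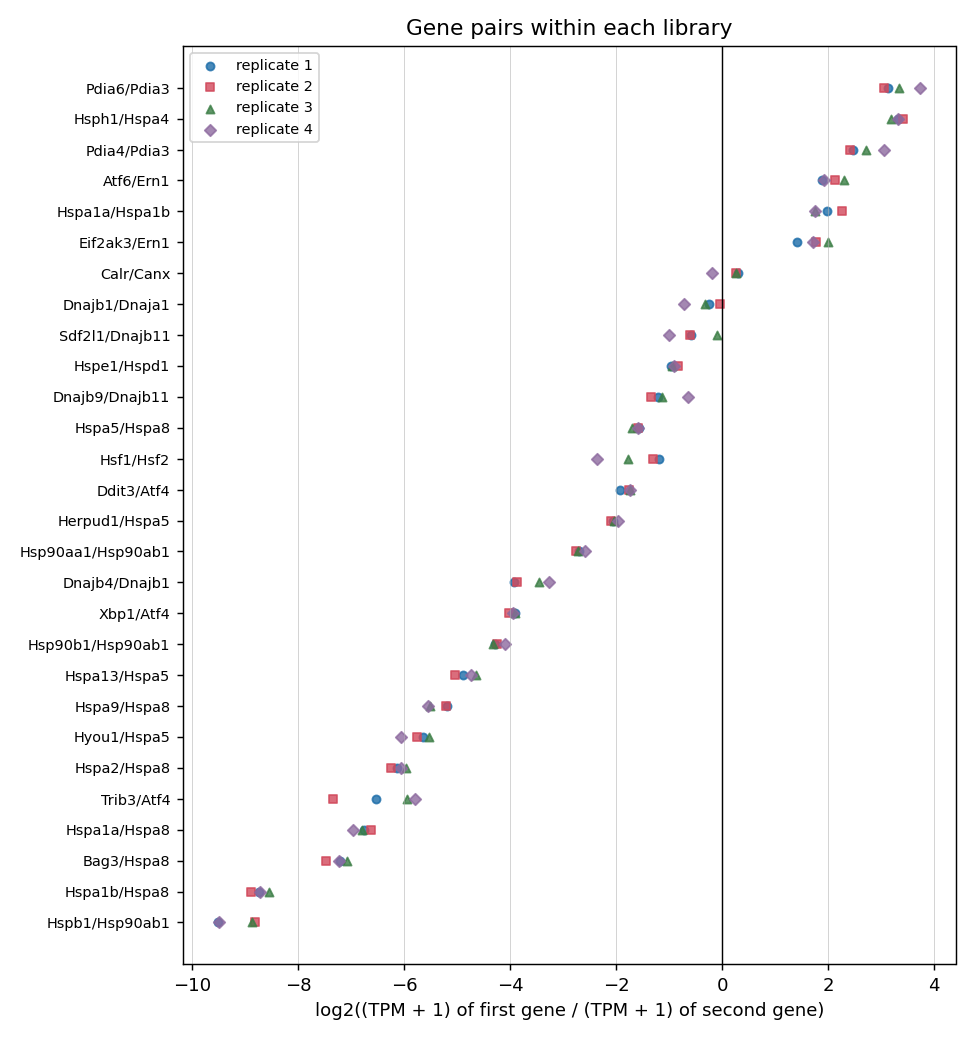
Log2 ratio of TPM + 1 between the first and the second gene of 28 pairs, with 1 point per library; points left of 0 mean that the first gene was lower. In 21 pairs the first gene was lower in all 4 libraries, in 6 it was higher in all 4, and Calr/Canx lay on both sides of 0.

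Sequence shared with pseudogenes bears on several of these levels. Of the 40 members, 20 share no 50-base word with another annotated gene and 26 share under 1%. Above 20% were 8: Hspa1a, Hspa1b and Hspb1 as given, Hsp90aa1 at 47.5%, Hspd1 at 42.1%, Hspa8 at 39.4%, Hspe1 at 22.8% and Dnaja1 at 20.6%. Levels of these genes are uncertain, since the handling of reads that match several genes is not stated in the sources used here. The nearest copies had few counts of their own: the Hsp90aa1 pseudogene Gm12346 had 859 over all libraries, Hspd1-ps3 had 402, the Dnaja1 pseudogene Gm15542 had 239 and the Hspa8 pseudogene Gm15459 had 0. With lengths that leave out shared words, an alternative chosen after seeing the data, Hspa8 averaged 4762 TPM, Hsp90aa1 1325 TPM, Hspa1a 69.2 TPM and Hspa1b 14.2 TPM.

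**Figure D3:**
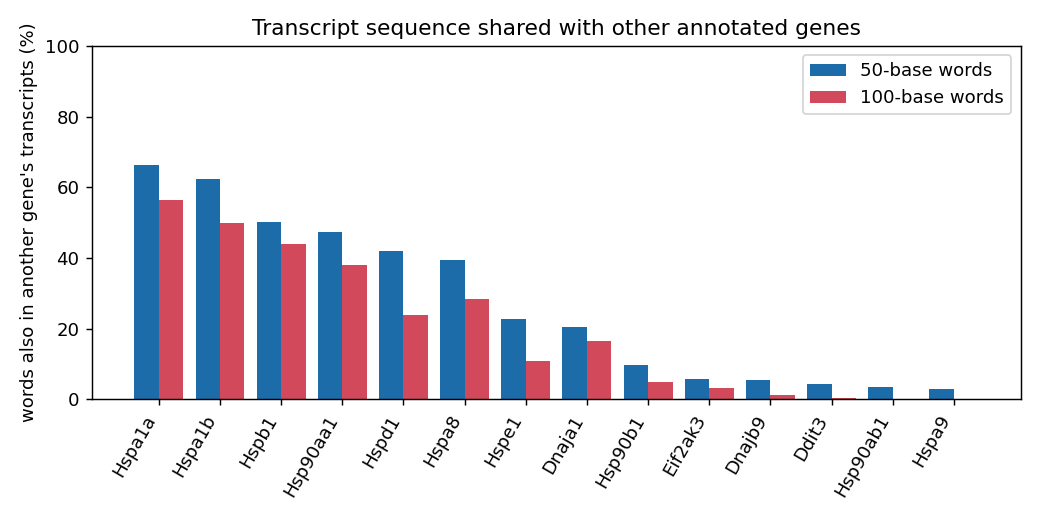
Share of the 50-base and 100-base words of each gene's transcripts that also occur in transcripts of another gene, for the 14 genes sharing at least 1% of their 50-base words. Hspa1a leads at 66.3% of 50-base and 56.5% of 100-base words.

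Heat shock elements, the binding motif of heat shock factors, were looked for in the RefSeq windows of GRCm38.p6 that run from 250 bases before to 50 bases after a gene's start. Such windows were matched for 32 of the 40 members, in 38 windows, and for 27025 genes in all. The motif of 3 units, GAA, TTC and GAA with 2 bases between units, on either strand, occurred in 3 members, Hsph1, Hspd1 and Hspe1 (9.38%), against 0.662% of all genes. Its 2-unit forms overlap it: GAANNTTC occurred in 8 members (25%, against 9.04% of genes) and TTCNNGAA in 5 (15.6%, against 9.6%). In all these counts the matches of Hspd1 and Hspe1 are the same stretch of DNA, read on opposite strands. The 3-unit match of Hsph1 lies after its start. A match is a run of letters and not a measured binding site. The members were chosen as known stress genes, so an excess of this motif among them is no independent result. The sequences below show a 3-unit match for each of 2 mitochondrial genes that stand head to head, and upstream 2-unit matches of 3 inducible genes. The levels of these 3 were as different as 276 ± 8.33 TPM (Hsph1), 13.6 ± 1.92 TPM (Dnajb4) and 8.57 ± 2.81 TPM (Hspb1). Each is read 5′ to 3′ on its gene's strand, with the matched motif in capitals, at chr1:55088044-55088086 for Hspd1 (minus strand), chr1:55088049-55088091 for Hspe1 (plus), chr5:149636347-149636384 for Hsph1 (minus), chr3:152193837-152193874 for Dnajb4 (minus) and chr5:135887807-135887844 for Hspb1 (plus).
Hspd1: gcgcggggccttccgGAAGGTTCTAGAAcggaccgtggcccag
Hspe1: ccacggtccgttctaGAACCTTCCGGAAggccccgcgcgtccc
Hsph1: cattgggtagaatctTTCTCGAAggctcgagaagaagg
Dnajb4: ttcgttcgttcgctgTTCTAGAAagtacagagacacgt
Hspb1: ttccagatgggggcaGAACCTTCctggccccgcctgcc

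The mitochondrial chaperones included the chaperonin pair whose 3-unit matches are shown above. Hspd1, which encodes HSP60, had 658, 649, 704 and 669 TPM (669.9 ± 23.9, SD, n = 4). Hspe1, its co-chaperonin HSP10, had 336, 364, 366 and 354 TPM (355 ± 13.9). Both were stable, within 1.08 and 1.09 times between libraries, and Hspe1 was lower than Hspd1, at a log2 ratio of -0.91 ± 0.059 (SD, n = 4). Their exons overlap on opposite strands over 7.60% of Hspe1 and 4.24% of Hspd1. Hspa9, the mitochondrial HSP70 mortalin, was the lowest of the group at 89.8, 92.0, 75.4 and 72.4 TPM (82.4 ± 9.93), higher in replicates 1 and 2 than in replicates 3 and 4, and lower than the cytosolic Hspa8, at a log2 ratio of -5.36 ± 0.19.

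The ER chaperones and folding enzymes were led by Hspa5. This gene for BiP, the HSP70 of the ER and the partner that holds the sensors inactive (ENSMUSG00000026864; chr2:34771970-34777547, plus strand), had 1119, 1135, 1062 and 1139 TPM (1114 ± 35.3, SD, n = 4). Pdia6, a protein disulfide isomerase, had 656, 642, 646 and 654 TPM (649 ± 6.77), the smallest coefficient of variation of all members at 1.04%. Hspa5 was lower than its cytosolic relative Hspa8, at a log2 ratio of -1.61 ± 0.061 (SD, n = 4), in all 4 libraries. Hsp90b1, the ER isoform of HSP90 known as GRP94, had 267, 273, 286 and 298 TPM (281 ± 13.7) and was lower than Hsp90ab1, at a log2 ratio of -4.24 ± 0.10. As a group the 13 genes had a median of 6.20 ± 0.14 (log2), below the 7.04 ± 0.086 of the constitutive cytosolic genes in all 4 libraries.

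The order of the glycoprotein chaperones Calr and Canx depended on the length used. Calr, the soluble calreticulin, had 606, 596, 612 and 529 TPM (586 ± 38.4, SD, n = 4), lowest in replicate 4. Canx, the membrane-bound calnexin, had 495, 498, 510.0 and 602 TPM (526 ± 51.0), highest in replicate 4. By exon length Calr was higher in 3 of 4 libraries, and the mean ratio of 0.16 ± 0.23 (log2, SD) is within the spread (exact sign-flip permutation test, p = 0.25, 0.25 adjusted). The ratio was 0.42 with the longest transcript as length and 2.09 on the deposited TPM, with Calr higher in all 4 libraries under both, and -0.55 on CPM, which takes no account of length.

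Folding enzymes of one family differed by several log2 units. Pdia4, another disulfide isomerase, had 418, 411, 421 and 406 TPM (414 ± 6.82) and stayed within 1.04 times between libraries. Pdia3, known as ERp57, the disulfide isomerase that works with Calr and Canx, had 74.5, 76.4, 63.2 and 48.1 TPM (65.5 ± 13.0), lowest in replicate 4. Pdia4 was higher than Pdia3 by 2.66 ± 0.29 and Pdia6 higher than Pdia3 by 3.31 ± 0.31 (log2, SD, n = 4).

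The co-factors of BiP, and the separate HSP70 Hspa13, were lower than BiP itself. Hyou1, the nucleotide exchange factor GRP170, had 21.6, 20.003, 22.1 and 16.2 TPM (19.96 ± 2.67), lowest in replicate 4, and was lower than Hspa5, at a log2 ratio of -5.74 ± 0.23 (SD, n = 4). Hspa13, a microsomal HSP70, had 36.9, 33.6, 41.7 and 41.95 TPM (38.6 ± 4.03), higher in replicates 3 and 4, at a log2 ratio of -4.82 ± 0.18 to Hspa5. Of the ER J-proteins, which pass clients to BiP, Dnajb11 (ERdj3) had 80.9, 77.1, 68.3 and 65.0 TPM (72.8 ± 7.40). Dnajb9 (ERdj4) had 34.3, 29.9, 30.7 and 41.0 TPM (34.0 ± 5.07). Dnajb11 was lowest in replicate 4, where Dnajb9 was highest. Dnajc3, the J-protein P58IPK, was the lowest of the group at 7.43, 6.74, 9.96 and 6.92 TPM (7.76 ± 1.49), highest in replicate 3. Sdf2l1, a partner of Dnajb11, had 53.7, 50.4, 63.7 and 32.0 TPM (49.9 ± 13.2), lowest in replicate 4. By exon length Dnajb9 was lower than Dnajb11, at a log2 ratio of -1.08 ± 0.30, and Sdf2l1 lower at -0.57 ± 0.37 (SD, n = 4), and both signs turn on the deposited TPM, which divides by the whole gene span (0.73 and 1.13).

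The ER stress response element, CCAAT and CCACG with 9 bases between them, on either strand, is the textbook motif through which ATF6 acts on ER chaperone genes. It occurred in 6 of the 32 members with a window (18.8%), against 0.137% of all genes, and all 6 were ER chaperones or folding enzymes: Hspa5, Hsp90b1, Dnajc3, Calr, Canx and Pdia6. The related element II, ATTGG and CCACG with 1 base between them, occurred in 2 members, Dnajb11 and Herpud1 (6.25%, against 0.0444% of genes). Neither element had a match in the window of a cytosolic or mitochondrial member. Both elements are known from unfolded protein response genes, and the members include such genes by choice, so these shares are no independent result. The members with the first element ranged from 7.76 ± 1.49 TPM (Dnajc3) to 1114 ± 35.3 TPM (Hspa5), so its presence did not go with a single level. The letters TGACGTGG, the unfolded protein response element, had no match in a member (0.714% of genes), and TGATGNAA, the CHOP-ATF element, had matches in Herpud1 and Trib3 (6.25%, against 4.51%). The runs below lie upstream of the RefSeq start, read 5′ to 3′ on the gene's strand with the motif in capitals, at chr2:34772010-34772058 for Hspa5 (plus), chr10:86705623-86705671 for Hsp90b1 (minus), chr14:118937812-118937860 for Dnajc3 (plus), chr8:84847060-84847108 for Calr (minus), chr11:50325785-50325833 for Canx (minus), chr12:17266476-17266524 for Pdia6 (plus) and chr8:94386362-94386402 for Herpud1 (plus), the last with element II.
Hspa5: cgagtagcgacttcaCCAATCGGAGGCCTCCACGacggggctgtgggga
Hsp90b1: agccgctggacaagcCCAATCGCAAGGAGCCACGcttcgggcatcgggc
Dnajc3: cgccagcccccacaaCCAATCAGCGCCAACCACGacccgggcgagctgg
Calr: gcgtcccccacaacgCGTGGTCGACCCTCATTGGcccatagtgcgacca
Canx: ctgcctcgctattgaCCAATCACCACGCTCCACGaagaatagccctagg
Pdia6: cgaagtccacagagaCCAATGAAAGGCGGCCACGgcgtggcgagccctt
Herpud1: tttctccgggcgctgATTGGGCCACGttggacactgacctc

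The sensors of the unfolded protein response were low among the members, with Atf6 at rank 34, Eif2ak3 at rank 36 and Ern1 at rank 40 of 40 by mean TPM. Ern1, the kinase and endonuclease IRE1 (ENSMUSG00000020715; chr11:106394650-106487852, minus strand), had 2.15, 1.5, 1.69 and 2.02 TPM from 157, 138, 133 and 136 counts (1.84 ± 0.296 TPM, SD, n = 4). Its level exceeded 1 TPM by a log2 margin of 0.88 ± 0.13 (SE), the smallest of the 40, with an edgeR adjusted p of 0.00014. On the deposited TPM Ern1 lay below 1 TPM instead. Eif2ak3, the PERK kinase, had 7.33, 7.53, 9.69 and 8.90 TPM (8.36 ± 1.13), and Atf6, the sensor that is itself a factor once cleaved, had 10.6, 9.90, 12.3 and 10.45 TPM (10.8 ± 1.03). Eif2ak3 was higher than Ern1 by 1.72 ± 0.24 and Atf6 higher than Ern1 by 2.06 ± 0.20 (log2, SD), in all 4 libraries.

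The transcription factors downstream of the sensors were higher. Atf4, which PERK signalling raises mostly through translation, had 407, 379.6, 401 and 341 TPM (382 ± 29.7, SD, n = 4), lowest in replicate 4. Ddit3, the factor CHOP, had 106, 111, 120.2 and 101 TPM (109.7 ± 8.17). Ddit3 was lower than Atf4, at a log2 ratio of -1.79 ± 0.093 (SD, n = 4), with similar values in replicates 2 to 4 and a lower one in replicate 1. Xbp1, whose mRNA IRE1 splices, had 26.3, 22.6, 25.8 and 21.1 TPM (23.9 ± 2.51) and was lower than Atf4, at a log2 ratio of -3.94 ± 0.051. Counts per gene do not separate the spliced from the unspliced Xbp1 mRNA, and do not measure translation of Atf4. The 6 sensors and factors had a median of 4.10 ± 0.12 (log2), below that of the ER folding genes in all 4 libraries.

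The 2 remaining members are targets. Herpud1, a membrane component of ER-associated degradation, had 267, 263, 257 and 289.9 TPM (269 ± 14.5, SD, n = 4) and was lower than Hspa5, at a log2 ratio of -2.05 ± 0.057. Trib3, a pseudokinase induced by ATF4 and CHOP, had 3.42, 1.34, 5.54 and 5.14 TPM from 65, 32, 113 and 90 counts (3.86 ± 1.92 TPM). Trib3 was lowest in replicate 2 and its highest library was 4.14 times the lowest, the widest span of the 40 members. The 5 erythroid markers checked, all above 1 TPM and none at 0, summed to 2374, 4198, 2682 and 2424 TPM in replicates 1 to 4, highest in replicate 2; their part in the Trib3 values was not tested. Trib3 was lower than Atf4, at a log2 ratio of -6.40 ± 0.70 (SD, n = 4).

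Between libraries most members were steady. Their median coefficient of variation was 9.62%, against 14.6% for tested protein-coding genes; among genes averaging over 10 TPM it was 9.32% for the 34 members and 8.88% for protein-coding genes, so members above that level were close to other genes above it. It was under 10% for 21 members and over 20% for 4, Trib3 (49.6%), Hspb1 (32.8%), Hsf1 (29.4%) and Sdf2l1. By edgeR's test of residual quasi-dispersion against its abundance trend, 0 of the 40 members, and 0 of 16706 genes, were more variable after adjustment. At an unadjusted level of 0.05 the same edgeR test marked 3 of the members, Hsf1, Pdia3 and Sdf2l1, against 4.72% of all genes. The residual quasi-dispersion was 7.94 times the trend for Hsf1, 6.54 times for Pdia3 and 4.92 times for Sdf2l1. Without replicate 4 the members marked at that level were Dnajb1, Hsf1 and Trib3. Hsf1, Pdia3 and Sdf2l1 were all lowest in replicate 4, which is also the library that stood farthest from the others. The 6 microglia markers checked, 5 of them above 1 TPM and none at 0, summed to 38.4, 28.2, 36.7 and 16.8 TPM in replicates 1 to 4. This sum was lowest in replicate 4, though Cx3cr1 was lowest in replicate 2 (0.986 TPM, against 1.13 TPM in replicate 4). The 4 endothelium markers, 1 of them above 1 TPM, also had their lowest sum in replicate 4 (2.84 TPM). The part of either cell type in the values of Hsf1, Pdia3 and Sdf2l1 was not tested.

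No library was high or low for every member, but replicate 3 was more often highest, and less often lowest, among members than among protein-coding genes. The members' share of all TPM was 1.61%, 1.61%, 1.68% and 1.61% in replicates 1 to 4. The cause of this was not tested. Replicates 2 and 4 held the lowest value of 15 members each, replicate 1 of 7 and replicate 3 of 3, while the highest value lay in replicate 3 for 19, in replicate 4 for 10, in replicate 1 for 7 and in replicate 2 for 4. Of 11211 protein-coding genes, the lowest value lay in replicates 1 to 4 for 20.5%, 29.4%, 22.2% and 28.0%, and the highest for 24.4%, 18.54%, 21.7% and 35.3%. Among the ER genes replicate 4 was lowest for 6 and highest for 5 of 13, so this library moved members of the same group in opposite directions.

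**Figure D4:**
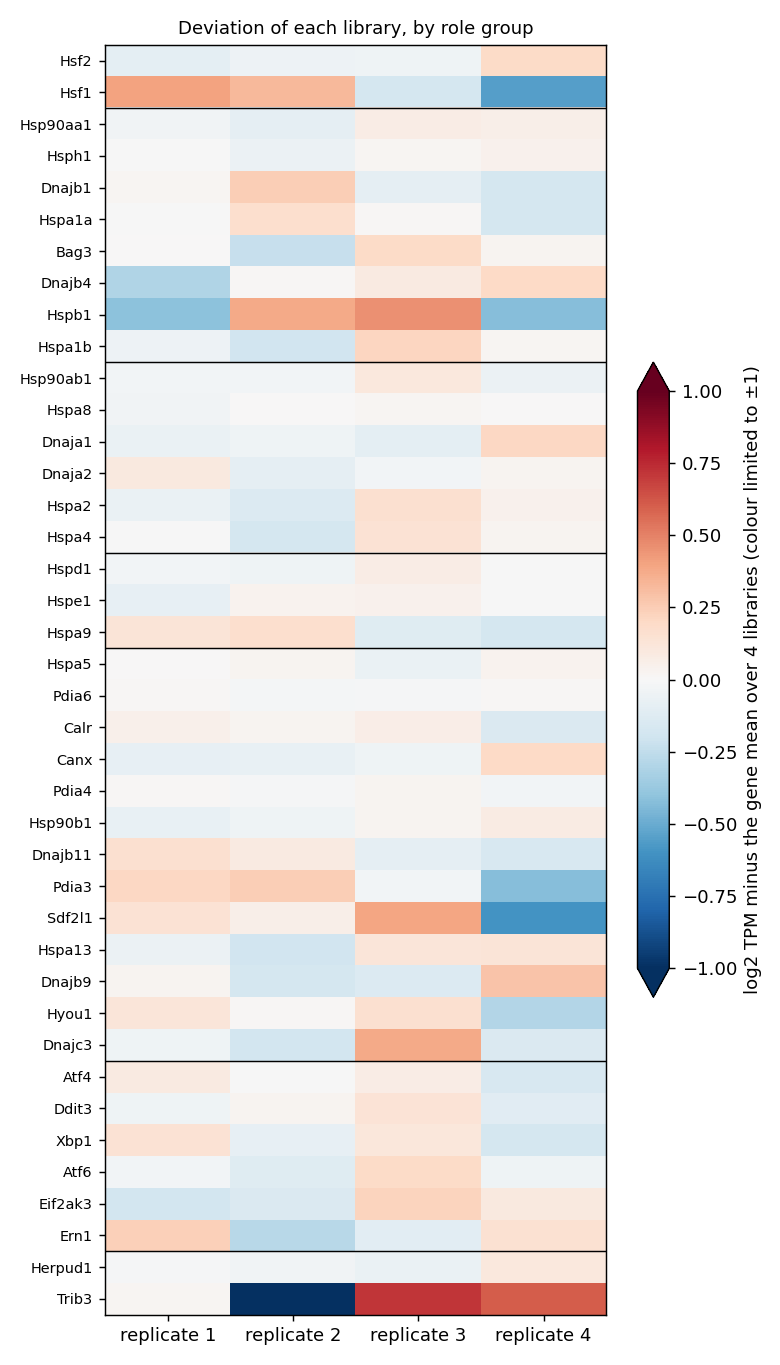
Log2 TPM of each gene in each library minus the gene's mean over the 4 libraries, with role groups separated by lines; red is above and blue below the gene's mean. Most cells are pale, and the strongest are those of Trib3 in replicates 2, 3 and 4 (1.34, 5.54 and 5.14 TPM), followed by Sdf2l1 and Hsf1 in replicate 4 (32.0 and 8.93 TPM).

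Other genes of the same pathways were taken from 9 lists of 121 genes, of which 120 were matched to the count table and 119 had enough counts to test. The co-chaperone Hspa14 was not matched. Of these, 112 lay above 1 TPM, 2 below, and 5 were not called (edgeR, adjusted over all genes tested). Of all genes tested 65.9% lay above 1 TPM, and of the protein-coding genes 75.7%, so the counts of each list below are to be read against a high background. All 13 subunits of the TRiC chaperonin and of prefoldin, which fold actin and tubulin, were above 1 TPM, with a median of 394 TPM. They were led by Cct5 at 1486 ± 11.9 TPM (SD, n = 4), Pfdn5 at 675 ± 18.2 TPM and Cct8 at 639 ± 27.4 TPM, and the lowest was Pfdn4 at 156.5 ± 12.3 TPM. All 22 cytosolic co-chaperones tested were above 1 TPM (median 42.6 TPM), led by the HSP70-HSP90 organiser Stip1 at 938 ± 23.2 TPM, the HSP90 co-chaperone Ptges3 at 726 ± 89.1 TPM and the HSP70 interactor St13 at 247 ± 32.4 TPM, with the immunophilin Fkbp5 lowest at 5.31 TPM. Of the 6 genes tested from a list of small heat shock protein symbols, 4 were above 1 TPM. Hspb11, listed for its symbol only (37.5 ± 6.90 TPM), Cryab (29.6 ± 6.65 TPM) and Hspb8 (25.7 ± 4.88 TPM) were highest. Hspb7 had 0 counts in all 4 libraries and was not tested.

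The organelle lists gave similar counts. All 10 genes of mitochondrial quality control were above 1 TPM (median 45.0 TPM), from the protease subunit Clpp at 416 ± 39.0 TPM, the nucleotide exchange factor Grpel1 at 164 ± 10.3 TPM and the mitochondrial HSP90 Trap1 at 130.5 ± 5.50 TPM down to the protease Lonp1 at 15.2 ± 3.52 TPM. Of 13 further ER folding genes 12 were above 1 TPM (median 31.1 TPM), led by the collagen chaperone Serpinh1 at 534 ± 26.3 TPM, the disulfide isomerase P4hb at 446 ± 32.9 TPM and the ER stress-induced Manf at 129.9 ± 15.9 TPM, and the oxidase Ero1b was not called at 1.03 ± 0.451 TPM. All 15 genes of ER-associated degradation were above 1 TPM (median 24.3 TPM), led by the conjugating enzyme Ube2g2 at 216 ± 10.8 TPM, Selenos at 183 ± 3.64 TPM and the lectin Os9 at 156 ± 13.8 TPM, with Derl3 lowest at 3.83 ± 0.656 TPM.

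Stress regulators and targets outside the 40 completed the picture of levels. Of 16 other sensors and regulators 14 were above 1 TPM (median 17.3 TPM), led by the HSF1-binding Hsbp1 at 929.7 ± 54.4 TPM, the eIF2α phosphatase subunit Ppp1r15a at 159.7 ± 8.20 TPM and the eIF2α gene Eif2s1 at 136 ± 5.16 TPM, while Hsf4 lay below at 0.144 ± 0.216 TPM. Of 14 targets of ATF4 and CHOP 12 were above 1 TPM (median 60.4 TPM): asparagine synthetase Asns at 171 ± 14.0 TPM, the serine pathway enzyme Psat1 at 112 ± 3.28 TPM and the folate enzyme Mthfd2 at 105 ± 5.78 TPM were highest, and the cystine transporter Slc7a11 lay below at 0.398 ± 0.0478 TPM. All 10 immediate early genes, which many cells raise during tissue dissociation, were above 1 TPM (median 52.8 TPM). Fos at 546 ± 13.9 TPM, Btg2 at 425 ± 21.8 TPM and Nr4a1 at 111 ± 3.54 TPM were highest, and Fosb lowest at 1.66 ± 0.667 TPM. Btg2 was also listed here as a marker of intermediate progenitors, so its level is not particular to dissociation. The part of the isolation in the levels of stress genes was not tested, since no library of undissociated tissue was analysed here.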

How the data were processed

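Poly-dT primed, template-switched cDNA of 4 libraries was amplified, sheared and sequenced, per the labels' protocols. The submitters' processing notes name bcl2fastq 2.19.1, STAR 2.5.2b and the build GRCm38. Not given there are the counter, its strand setting and its treatment of reads with several matches. The authors deposited counts of reads per Ensembl gene, not normalised, and a table of TPM whose values follow the whole gene span for 8674 of 9107 genes tested, so it was used only as an alternative; it holds 36 of the 40 members.

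TPM was recomputed from the deposited counts with merged exon lengths of GENCODE M21, which matched 45143 of 45706 genes. Unmatched genes held at most 0.125% of a library's counts. Genes with at least 10 counts were tested against 1 TPM by a one-sample quasi-likelihood F test built on edgeR 4.0.16 (R 4.3.3; glmQLFit deviances against the counts expected at 1 TPM), with Benjamini-Hochberg adjustment, and DESeq2 1.42.0 as alternative. Variability was tested for genes with at least 40 counts. The F test was tested on simulated data. Role groups were summarised as medians of log2(TPM + 1), and gene pairs as log2 ratios with a pseudocount of 1, tested over libraries by exact sign-flip permutation.

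Shared sequence was counted as 50-base and 100-base words of annotated transcripts, and motifs in RefSeq windows of GRCm38.p6. Of Hsf1, Hsp90aa1, Hspa8, Hsp90ab1, Hspa9, Hspa13, Hyou1 and Atf6 no window was used here. Named were the 2 highest and the lowest member of each role group, and the genes of the pairs, with values in every library, and of other lists the 3 highest genes and the lowest. The genes and lists were chosen with earlier results of these data known. Precision is limited by counts for low members, 300 reads in all for Trib3.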

Additional observations from a re-analysis of the deposited data

Results flagged for a closer look

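Of 78 results with a value in each of the 4 libraries (the TPM of each member, the ratios of gene pairs and the role group values), 5 had a highest or lowest library whose gap to its nearest neighbour took up an unusually large part of the whole range. Chance alone flags about 1 in 20 such groups, so 5 of 78 is near that share. Hsf2 stood at 49.9 TPM in replicate 4, above 40.7 to 42.2 TPM in the others. Canx stood at 602 TPM in replicate 4, above 495 to 510.0 TPM in the others. The Calr to Canx ratio was -0.19 on the log2 scale in replicate 4, below 0.26 to 0.29 in the others, and rests on the same Canx value. The Hspa5 to Hspa8 ratio was -1.70 in replicate 3, below -1.59 to -1.57 in the others. The Ddit3 to Atf4 ratio was -1.93 in replicate 1, below -1.76 to -1.73 in the others.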

How the results depend on the processing

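No paired analysis was possible because the labels give 1 group, so no replicate number is shared between groups. All 40 members stayed above 1 TPM without any 1 replicate, and DESeq2's Wald test also called 40 above. At a level of 5 TPM 38 were above and 1 below: Ern1 at -1.44 (log2 against the level), with Trib3 at -0.38 not called. On the deposited TPM 35 of 36 were above and 1 below, Ern1, with a mean of 0.567 TPM there. Its value was -0.35 on the scale of log2(TPM + 1) minus 1, which cannot be set beside the -1.44. No member was called more variable without any 1 replicate (0 in each). The inducible minus constitutive median was -2.53 with the longest transcript as length, -1.79 on deposited TPM, -2.50 as a mean over members, -2.65 on CPM, without length, and -1.85 with unshared length, chosen after seeing the data. The ER minus constitutive median was -1.52, -1.16 and -1.28 on deposited TPM, as a mean and on CPM. The sensors and factors minus ER median was -2.72 on deposited TPM and -1.59 on CPM. Leaving out each replicate gave -2.37 to -2.25, -0.89 to -0.75 and -2.18 to -2.05 for the 3 differences, and 6 to 7 pairs higher and 21 lower in every library; the added pair, without replicate 4, is Calr/Canx. On deposited TPM 8 of 23 pairs were higher, 14 lower and Dnajb1/Dnaja1 mixed (-0.013). Reversed pairs were Dnajb9/Dnajb11 at 0.73 and Sdf2l1/Dnajb11 at 1.13 on deposited TPM, and Calr/Canx at -0.55 on CPM. The cause of these shifts was not tested beyond the length used. Depth limits Ern1, Trib3 and Hspb1, with 564, 300 and 345 counts in all.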
